A study of Homo sapiens with 2 samples.

Results

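The ATP-binding cassette (ABC) transporter genes were followed by RNA-seq in Huh7, a long-established line of human hepatocellular carcinoma cells. The study has 1 library of cells that received a control shRNA and 1 of cells that received an shRNA to knock down USP22, which removes ubiquitin from histones as part of the SAGA complex. Members were the genes whose symbol begins with ABC, a subfamily letter from A to G and a digit. The rule found 27 of the 11976 genes listed in each library, which are 27 of the 45 protein-coding genes with such symbols in the GENCODE 29 annotation. The other 18, among them the bile salt export pump ABCB11 and the sterol transporters ABCG1 and ABCG5, are not analysed here. TAP1 and TAP2 belong to the same protein family but carry other symbols, and are given with their partners below. The labels give neither the shRNA sequence nor how or when it was delivered. They do not say whether the cells of a library were a pool or a clone.

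ABC proteins share a nucleotide-binding domain that hydrolyses ATP. In subfamilies A, B, C, D and G this domain powers movement of lipids, bile constituents, drugs, peptides or metal-linked compounds across a membrane, whereas proteins of subfamilies E and F have no membrane segments and act on ribosomes. In hepatocytes, ABC transporters at the canalicular face build bile and clear drugs, those at the opposite face return conjugates and cholesterol to blood, and those of peroxisomes and mitochondria serve fatty acid, haem and iron-sulfur metabolism.

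Values are read as FPKM (fragments per kilobase of transcript, scaled to sequencing depth), a level scaled for transcript length, although the tables name no unit. Ratios are log2 of (USP22 shRNA + 1) over (control + 1), and calls of higher or lower need a log2 ratio of 1 or more in size, which is 2-fold, and an average of both libraries at or above 1 FPKM. With 1 library per group no test, replicate error or p-value can be given, so these words speak of 2 libraries and of nothing wider. The values of all listed genes summed to 244301 FPKM with control shRNA and 218955 FPKM with USP22 shRNA, and the read depth behind them is unknown. Where a pair of FPKM values follows without its libraries, the control comes first, and where a pair of log2 ratios stands in parentheses, the latter has the trend with GC content removed. USP22 itself stood at 58.1 FPKM with control shRNA and 7.67 FPKM with USP22 shRNA (-2.77, and -2.44). All 12 hepatocyte and liver cancer line markers examined were listed, with summed levels of 3373 and 2155 FPKM, and 6 of them were lower (AHSG, TTR, SERPINA1, TF, HNF4A and APOA1), against 12.2% of all genes. After removal of the GC trend 5 were lower (AHSG, TTR, SERPINA1, TF and ALB), against 8.92% of all genes. Of 8 markers each for blood cells, for endothelium and stroma, and for other epithelia, 2, 4 and 1 were listed, with summed levels of 5.28, 13.4 and 16.5 FPKM in the control and 1.11, 15.7 and 2.39 FPKM in the USP22 shRNA library. Their part in the ratios of ABC genes was not tested.

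Across genes the ratio followed the GC content of the transcript, and ABC genes were no exception, so calls and log2 ratios of members are also given with that trend removed (residuals from a smooth curve of the ratio on GC content over all genes). The trend was taken over whole transcripts, and the stretches below show base composition in a short part of the coding sequence only. They code for the same part of 2 pairs of related proteins, around the ABC signature motif, and come from GENCODE 29 transcripts on GRCh38. In each pair, the gene named first was higher and the one named after it had a log2 ratio below 0. Capitals mark the codons for the leucine, serine, glycine and glycine that open the motif. All lie on the minus strand. The ABCA1 stretch spans exons 21 and 22 (chr9:104819695-104819957) and the ABCA2 stretch lies in exon 23 (chr9:137015784-137015843). The ABCB10 stretch spans exons 10 and 11 (chr1:229521607-229525966) and the ABCB6 stretch lies in exon 16 (chr2:219210753-219210812).
ABCA1: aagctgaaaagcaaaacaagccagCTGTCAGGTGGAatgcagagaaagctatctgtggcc
ABCA2: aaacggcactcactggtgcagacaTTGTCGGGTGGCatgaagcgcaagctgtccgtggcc
ABCB10: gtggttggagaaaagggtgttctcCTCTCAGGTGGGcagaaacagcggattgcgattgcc
ABCB6: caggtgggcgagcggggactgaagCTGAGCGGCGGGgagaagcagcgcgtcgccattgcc

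ABCB6 and ABCB10 carried the same base at 36 of 60 positions of these stretches, and at 7 of the 20 final codon positions. Of the 20 codons, 18 ended in G or C in ABCB6 and 10 in ABCB10. ABCA2 and ABCA1 were identical at 33 of 60 positions, and 16 and 11 codons ended in G or C. GC content over the whole longest protein-coding transcript, untranslated parts included, was 45.3% for ABCB10 and 59.3% for ABCB6. It was 45.5% for ABCA1 and 63.7% for ABCA2. Over the coding sequence alone, ABCB10 and ABCB6 were close, at 56.3% and 58.3%, while ABCA1 and ABCA2 were at 50.1% and 63.2%. The whole transcript of ABCD3 had a GC content of 37.7%.

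Of the 27 genes, 24 averaged 1 FPKM or more, and each of these 24 was at 1 FPKM or above in both libraries. In the USP22 shRNA library 7 of the 24 (29.2%) were higher, among them ABCA1, ABCB10, ABCC5, ABCD3, ABCE1 and ABCG2, against 24.1% of the 10195 genes past the same filter. None was lower, against 12.2% of all genes. The median log2 ratio was 0.12 for the 24 genes and 0.098 for all genes, so the family as a whole had a share of higher genes and a median near those of the background. With the GC trend removed, ABCA1, ABCC5 and ABCD3 were higher (12.5% of the 24, against 8.44% of all genes), none was lower (against 8.92%), and the median was 0.09. Under TMM scaling, which sets the bulk of genes level between libraries, 6 of the 24 were higher, against 19.4% of all genes, ABCA2 and ABCB6 were lower, against 17.5%, and the median of the 24 was -0.05.

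**Figure D1:**
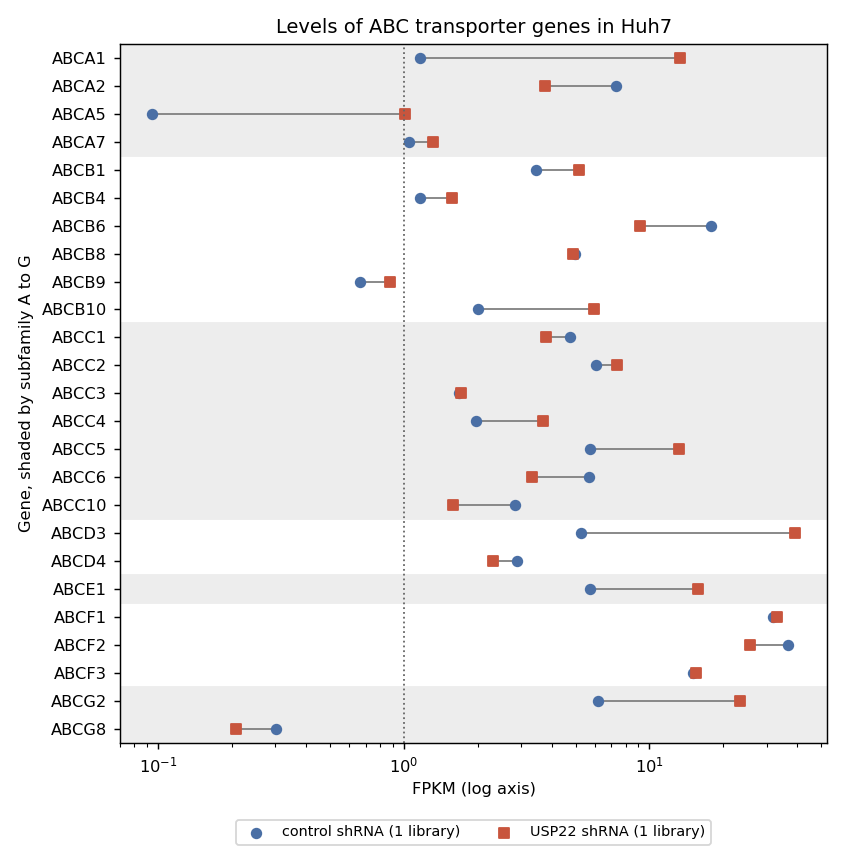
Level of 25 ABC transporter genes in FPKM (log axis) in the control (circles) and USP22 shRNA (squares) libraries, 1 library each, with subfamilies in alternating bands and a dotted line at 1 FPKM. ABCA1, ABCA5, ABCD3 and ABCG2 show the longest gaps, all to the right, ABCA5 from a control level below 1 FPKM, while ABCF1, ABCF3, ABCB8 and ABCC3 lie almost on top of each other.

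By level, the ribosome-associated subfamily F led the control library. ABCF2 stood at 36.7 FPKM, ABCF1 at 31.7 FPKM, the porphyrin transporter ABCB6 at 17.8 FPKM, ABCF3 at 14.98 FPKM and ABCA2 at 7.31 FPKM. In the USP22 shRNA library ABCD3 came first at 39.2 FPKM, before ABCF1 at 33.1, ABCF2 at 25.7, ABCG2 at 23.5 and ABCE1 at 15.7 FPKM. The summed level of the 27 genes was 179 FPKM with control shRNA and 248 FPKM with USP22 shRNA. Subfamily F made up 46.6% and 30.03% of that sum. The order of levels correlated between the libraries at a Spearman rho of 0.76 over the 27 genes, which share both libraries and are not replicates. Without replicates, no neighbours in these orders can be told apart.

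Subfamily A moves lipids. ABCA1, which hands cholesterol and phospholipid to apolipoprotein A-I in the first step of HDL formation, was at 1.16 FPKM with control shRNA and 13.3 FPKM with USP22 shRNA, a plain ratio of 11.4 and a log2 ratio of 2.72. It ranked 76 from the highest of 10195 genes, and 62 of 10134 with the GC trend removed, where its log2 ratio was 2.18. Within the control it was rank 22 of the 27 ABC genes by level, and in the USP22 shRNA library rank 7. ABCA2, an endolysosomal lipid transporter, was at 7.31 and 3.75 FPKM, and its log2 ratio of -0.81 shrank to -0.12 with the GC trend removed. ABCA7, a phospholipid transporter linked to phagocytosis, was at 1.05 and 1.31 FPKM, and its log2 ratio of 0.17 became 0.89. ABCA5, a lipid transporter of late endosomes and lysosomes, was at 0.0943 and 1.01 FPKM, below the filter on the mean, and its exons overlap those of ABCA10 on the same strand, so its value is uncertain.

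In RefSeq (GRCh38.p14), 22 of the 27 genes had a promoter entry. The 250 bases before the start are shown for ABCA1 and ABCD3, the members with the highest log2 ratios, each with a single start there. The ABCA1 stretch is chr9:104928156-104928405 on the minus strand and the ABCD3 stretch is chr1:94418139-94418388 on the plus strand. Capitals mark matches on either strand to common promoter elements. The GC box was searched as GGGCGG. The letters of the E-box were CACGTG, those of the TATA box TATAAA, and the CCAAT box is named by its own letters. Nuclear receptors bind the element AGGTCA, which was searched alone and as a direct repeat with 4 free bases between the copies. The repeat was allowed at most 1 mismatch in each copy, a tolerance set with the ABCA1 sequence in view.
ABCA1: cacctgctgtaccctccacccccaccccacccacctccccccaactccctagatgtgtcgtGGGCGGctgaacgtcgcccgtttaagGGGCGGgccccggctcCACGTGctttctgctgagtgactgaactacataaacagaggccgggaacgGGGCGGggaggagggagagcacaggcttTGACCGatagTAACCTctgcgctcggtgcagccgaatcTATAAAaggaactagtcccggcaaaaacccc
ABCD3: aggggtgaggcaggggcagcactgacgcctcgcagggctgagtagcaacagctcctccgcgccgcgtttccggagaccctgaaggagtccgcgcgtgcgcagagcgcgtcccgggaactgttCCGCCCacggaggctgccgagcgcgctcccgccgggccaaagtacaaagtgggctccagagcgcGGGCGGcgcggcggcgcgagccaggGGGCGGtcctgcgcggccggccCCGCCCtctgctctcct

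The ABCA1 window held 3 GC boxes, 1 E-box and 1 TATA box beginning 31 bases before the start. With the mismatches allowed, it also held 1 direct repeat, beginning 69 bases before the start. It held no exact direct repeat and no exact AGGTCA on either strand. The liver X receptors, which bind such repeats, are textbook activators of ABCA1. The ABCD3 window held 4 GC boxes and no match to the other elements. Among all 35116 promoter windows of that length, 42.6% held a GC box, 6.34% an E-box, 10.7% a TATA box and 1.18% a direct repeat with the same tolerance, and the direct repeat overlaps the single element wherever a repeat is exact. As the tolerance was set with the ABCA1 sequence in view, the 1.18% cannot serve as a background for its match. These matches describe letters in a window and are not binding sites measured here. Whether the liver X receptors had a part in the ratio of ABCA1 was not tested. NR1H2, the liver X receptor beta, was at 13.9 FPKM with control shRNA and 5.10 FPKM with USP22 shRNA, a log2 ratio of -1.29 (-0.63 with the GC trend removed), and NR1H3, the alpha form, was at 4.94 and 2.03 FPKM (-0.97, and -0.52). Other genes known as targets of these receptors stood on either side, with the ubiquitin ligase MYLIP at 2.22 and 5.85 FPKM (1.09, and 0.60) and the lipogenic factor SREBF1 at 12.4 and 4.57 FPKM (-1.27, and -0.55).

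Subfamily B joins exporters of the cell surface with transporters of mitochondria. P-glycoprotein, encoded by the multidrug gene ABCB1, was at 3.44 FPKM with control shRNA and 5.15 FPKM with USP22 shRNA, and its log2 ratio of 0.47 turned to -0.41 with the GC trend removed. ABCB4, which delivers phosphatidylcholine to bile, was at 1.16 and 1.57 FPKM, and its log2 ratio of 0.25 turned to -0.47. Neither gene was past 2-fold in any setting tried. ABCB9, a lysosomal peptide transporter below the filter, was at 0.664 and 0.875 FPKM, and its exons overlap those of genes on the opposite strand.

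Mitochondrial members differed among themselves. ABCB10, of the inner membrane and needed for haem synthesis, was at 2.01 FPKM with control shRNA and 5.96 FPKM with USP22 shRNA, with a log2 ratio of 1.21, and the annotation holds 3 pseudogenes of it among which reads could be split. ABCB8 was level at 4.99 and 4.89 FPKM, and ABCB6 was at 17.8 and 9.17 FPKM, with a log2 ratio of -0.89. Removing the GC trend drew the log2 ratios of ABCB10 and ABCB8 together at 0.64 and 0.57, and ABCB6 stood at -0.31. These 3 genes were then inside 2-fold.

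**Figure D2:**
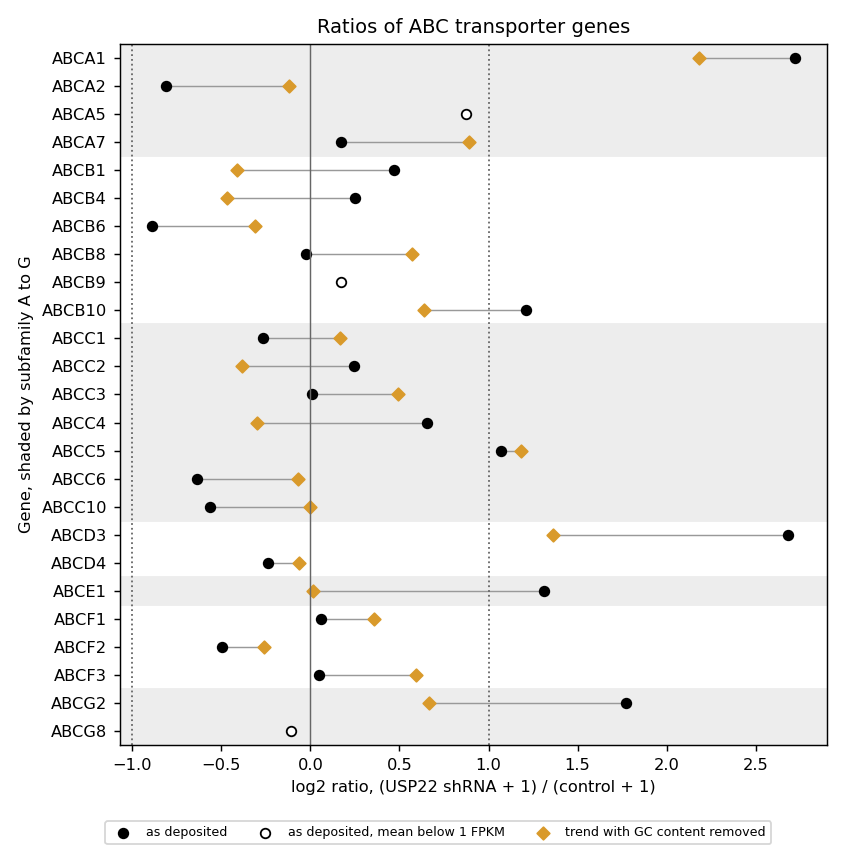
Log2 ratio of (USP22 shRNA + 1) over (control + 1) for 25 ABC transporter genes as deposited (black circles, open where the mean is below 1 FPKM) and with the trend with GC content removed (diamonds, for the 22 of them past the filter). Dotted lines mark 2-fold, and ABCA1, ABCC5 and ABCD3 lie beyond the right line in both versions.

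Subfamily C exports organic anions and conjugates. ABCC5, an exporter of cyclic nucleotides and other organic anions, was at 5.72 FPKM with control shRNA and 13.1 FPKM with USP22 shRNA. Its log2 ratio of 1.07 was the value nearest to the threshold among called genes, and was 1.18 with the GC trend removed. Its GC content of 50.8% was the highest of the 7 higher genes. It was inside 2-fold with median centring, with TMM scaling and with a pseudocount of 5. ABCC4, an exporter of cyclic nucleotides at the basolateral face of hepatocytes, was the nearest member inside the threshold on the higher side among genes past the filter, at 1.98 and 3.68 FPKM, and its log2 ratio of 0.65 turned to -0.30.

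The remaining members of subfamily C were within 2-fold in each setting tried. ABCC2, which exports bilirubin conjugates into bile, was at 6.07 and 7.36 FPKM (0.24, and -0.39), and ABCC3, its counterpart at the basolateral face, was at 1.68 and 1.70 FPKM (0.01, and 0.49). ABCC1, the multidrug resistance protein that exports glutathione conjugates, was at 4.74 and 3.78 FPKM (-0.27, and 0.17). ABCC6, needed for ATP release from hepatocytes, was at 5.70 and 3.32 FPKM, with a log2 ratio of -0.63, and 2 pseudogenes of it are annotated, so its value is uncertain. ABCC10 was at 2.83 and 1.59 FPKM, with exons that overlap DLK2 on the opposite strand. With the GC trend removed the log2 ratios of ABCC6 and ABCC10 were -0.07 and -0.0014.

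Subfamily D serves peroxisomes and lysosomes. ABCD3, the peroxisomal membrane protein that imports branched-chain and dicarboxylic fatty acids and bile acid precursors, was at 5.27 FPKM with control shRNA and 39.2 FPKM with USP22 shRNA. Its plain ratio was 7.45 and its log2 ratio 2.68, rank 82 from the highest of all genes past the filter. With the GC trend removed the log2 ratio was 1.36 at rank 365. ABCD4, which works in lysosomal release of vitamin B12, was at 2.88 and 2.30 FPKM (-0.24, and -0.07).

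Subfamilies E and F act in translation. ABCE1, the ATPase that splits ribosomes after termination, was at 5.75 FPKM with control shRNA and 15.7 FPKM with USP22 shRNA. Its log2 ratio of 1.31 became 0.01 with the GC trend removed, the largest change of this kind among the 7 higher genes except that of ABCD3, and its exons overlap those of ANAPC10 and OTUD4 on the opposite strand. The 3 members of subfamily F, all abundant, were inside 2-fold in each setting tried. ABCF1, which takes part in translation initiation, was at 31.7 and 33.1 FPKM (0.06, and 0.36). ABCF3 was at 14.98 and 15.5 FPKM (0.05, and 0.59), and ABCF2 at 36.7 and 25.7 FPKM (-0.50, and -0.26), with -0.73 under TMM scaling. ABCF2 has 2 annotated pseudogenes. Exons of ABCB6, ABCD4 and ABCF2 also overlap another annotated gene on the same strand, and those of ABCB8 one on the opposite strand, so these values are uncertain as well.

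In subfamily G, ABCG2, the breast cancer resistance protein that exports urate, porphyrins and drugs and is used as a marker of side-population cells, was at 6.17 FPKM with control shRNA and 23.5 FPKM with USP22 shRNA. Its log2 ratio of 1.77 became 0.67 with the GC trend removed. ABCG8, which with ABCG5 secretes sterols into bile, was at 0.302 and 0.207 FPKM, below the filter, and its exons overlap those of ABCG5 on the opposite strand.

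The Spearman correlation of the log2 ratio with GC content was -0.82 over the 24 ABC genes and -0.70 over 10134 genes, where genes of a library share its preparation and are not independent. The 7 higher genes had GC contents from 37.7% to 50.8%, and the 9 with a log2 ratio below 0 had 51.5% or more. Members with log2 ratios from 0 to 1 ran from 42.6% (ABCC4) to 64.7% (ABCA7). The groups were cut on the ratio, which follows GC content over all genes, so their separation cannot be read as a trait of the family. Among genes with GC content below 45%, 4 of 8 ABC genes were higher, against 56.8% of all 3515 genes there. Between 45% and 55% it was 3 of 7 (ABCA1, ABCB10 and ABCC5), against 11.6% of 3367 genes, and at 55% or above none of 9, against 1.78% of 3252 genes. ABCB1, ABCB4, ABCC2 and ABCC4 were the members below 45% that were not called higher.

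**Figure D3:**
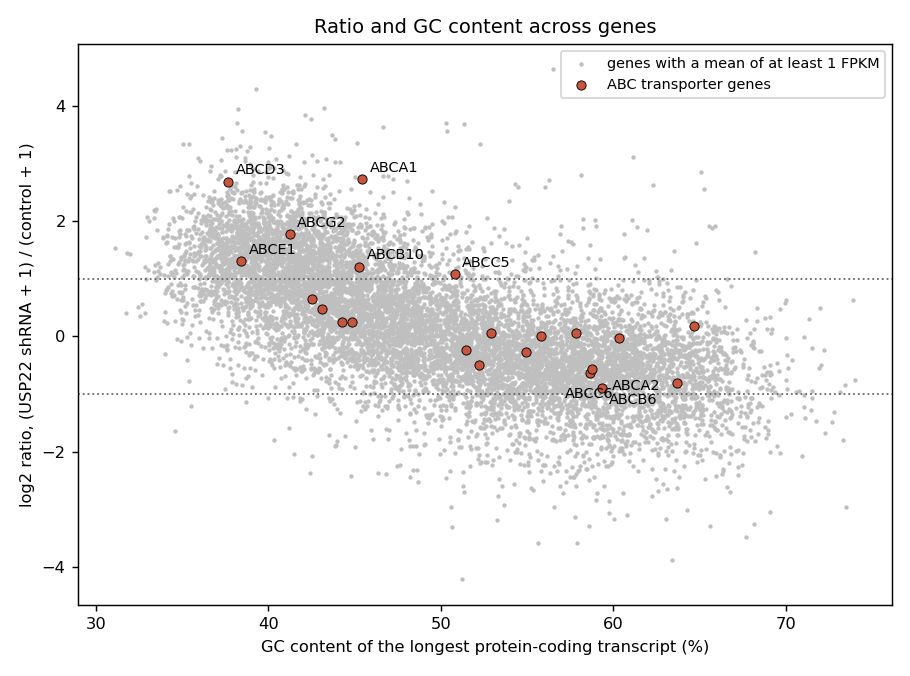
Log2 ratio of (USP22 shRNA + 1) over (control + 1) against GC content of the longest protein-coding transcript in percent, for genes past the filter (grey) and 22 ABC transporter genes among them (red). The family follows the downward trend of all genes, and ABCA1, ABCD3 and ABCC5 lie farthest above that trend, by 2.18, 1.36 and 1.18.

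Genes that work beside ABC proteins were listed by role, from general knowledge. Over 11 lists with more than 1 listed gene and a pair of potassium channel genes, 162 distinct genes were listed and 155 passed the filter. Of the 155, 30 (19.4%) were higher and 19 (12.3%) lower, against 24.1% and 12.2% of all genes. After removing the trend with GC content, 6 (3.87%) were higher and 15 (9.68%) lower, against 8.44% and 8.92% of all genes. These shares are also the background for the counts of single lists below, several of which hold few genes. The channel gene KCNJ8 was inside 2-fold.

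Ribosome recycling and rescue factors, which act with ABCE1, had the highest list median. Of 14 genes 8 (57.1%) were higher, against 24.1% of all genes, and 1 (7.14%) was lower, against 12.2%. The median log2 ratio was 1.17, against 0.098 over all genes. EIF3A, a scaffold of initiation factor 3, was at 9.14 FPKM with control shRNA and 65.9 FPKM with USP22 shRNA, and the ribosome assembly factor LTV1 was at 5.66 and 33.4 FPKM. ETF1, the release factor that ABCE1 follows on the ribosome, was at 12.7 and 52.2 FPKM. With the GC trend removed the list median was 0.01 and these 3 remained higher, at 1.85, 1.32 and 1.13, while ZNF598, a sensor of collided ribosomes that was lower at 11.7 and 3.79 FPKM, was inside 2-fold at -0.69. Of 12 genes of the GCN pathway and of initiation factors 2 and 2B, 3 were higher (EIF2S2, EIF2S1 and IMPACT) and EIF2B2 was lower. Removal of the GC trend left EIF2S2 higher, at 1.22, with EIF2B2 and EIF2B1 lower, at -1.62 and -1.09.

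Peroxisomal partners of ABCD3 lay on both sides. Of 16 genes past the filter 3 were higher and 3 lower, with a median of -0.04, or -0.34 with the GC trend removed. ACBD5, a tether that binds very long chain acyl-CoA, was at 1.92 FPKM with control shRNA and 12.6 FPKM with USP22 shRNA, and its log2 ratio of 2.22 shrank to 1.19 with the GC trend removed. PEX3, which takes part in the import of peroxisomal membrane proteins, was at 2.96 and 11.3 FPKM (1.63, and 0.26). Its partner PEX19 was at 7.57 and 5.06 FPKM (-0.50, and -0.99). ACOX2, the oxidase of branched fatty acids and bile acid intermediates, was lower at 4.45 and 0.703 FPKM (-1.68, and -1.27). CROT was the other higher gene, and PEX14 and PEX16 were the other lower genes, all 3 inside 2-fold with the GC trend removed.

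Among 25 genes of mitochondrial iron-sulfur cluster and haem synthesis, the chaperone HSPA9 was higher, at 53.0 FPKM with control shRNA and 136 FPKM with USP22 shRNA, and CIAPIN1 was lower, at 21.7 and 10.1 FPKM. Their median was -0.34, or -0.27 with the GC trend removed, while ABCB10 was higher. HSPA9 and CIAPIN1 were inside 2-fold after removal of the GC trend, at 0.52 and -0.93, and FDX1, a ferredoxin, and CPOX, an enzyme of haem synthesis, were then lower at -1.53 and -1.004. In vitamin B12 handling, 4 of 10 genes were higher (MUT, MMADHC, MTR and LMBRD1), against 24.1% of all genes, and MMAB was lower, against 12.2%. LMBRD1, the lysosomal partner of ABCD4, was at 7.50 and 16.8 FPKM (1.06, and -0.15), and with the GC trend removed MMACHC, at -1.05, was the gene of that list past 2-fold.

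In the sterol and phospholipid efflux list, 2 of 16 genes were higher and 3 lower, with a median of -0.20, or -0.02 with the GC trend removed. APOA1, which encodes the lipid acceptor of ABCA1, was lower at 781 FPKM with control shRNA and 381 FPKM with USP22 shRNA (-1.03, and -0.38 with the GC trend removed). The phospholipid transfer protein PLTP was at 18.9 and 4.32 FPKM (-1.90, and -1.32). The cholesterol esterifying enzymes stood apart from each other, with SOAT1 at 3.95 and 12.4 FPKM (1.44, and 0.22) and SOAT2 at 14.01 and 5.92 FPKM (-1.12, and -0.57).

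Of 8 canalicular and bile salt partners past the filter, ATP8B1 and TMEM30A, the subunits of a flippase that protects the canalicular membrane, were higher, and both subunits of the basolateral bile acid exporter were lower. ATP8B1 was at 0.597 FPKM with control shRNA and 4.17 FPKM with USP22 shRNA (1.70, and 0.96 with the GC trend removed), and TMEM30A at 7.28 and 18.3 FPKM (1.23, and -0.09). SLC51A was at 4.06 and 0.517 FPKM (-1.74, and -1.31), and SLC51B at 47.0 and 3.84 FPKM (-3.31, and -3.22). Among 9 anchors of canalicular transporters, radixin (RDX), which tethers ABCC2, was higher at 3.69 and 14.6 FPKM (1.73, and 0.44). Ezrin (EZR) was at 147 and 269 FPKM, inside 2-fold as deposited at 0.87 and past it with the GC trend removed at 1.01.

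Among factors that control ABC genes, 18 passed the filter, of which 6 were lower (among them NR0B2, NR1H2, SREBF1, RXRA and HNF4A) and HIF1A was higher, with a median of -0.57, or -0.52 with the GC trend removed. NR0B2, the small heterodimer partner that bile acids induce, was at 2.95 FPKM with control shRNA and 0.164 FPKM with USP22 shRNA (-1.76, and -1.19). The bile acid receptor NR1H4 was at 5.73 and 6.34 FPKM (0.13), and was at -1.04 with the GC trend removed, which was past 2-fold as NR0B2 was. NFE2L2, an activator of several ABCC genes, was at 4.99 and 6.70 FPKM (0.36, and -0.15).

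TAP1 and TAP2, the ABC proteins that load peptides for class I molecules, were at 2.24 and 2.36 FPKM and at 4.32 and 2.72 FPKM. In their complex of 12 listed genes, B2M and CANX were higher, with a list median of -0.36, or -0.00064 with the GC trend removed. B2M, the light chain of class I molecules, was at 7.48 FPKM with control shRNA and 26.01 FPKM with USP22 shRNA (1.67, and 0.42 with the GC trend removed). The disulfide isomerase PDIA3 was the gene past 2-fold with the GC trend removed, at -1.17. Of 14 genes past the filter that supply glutathione and other conjugates for subfamily C, 3 were higher (GCLC, GCLM and GSTA2) and none lower. GCLC, the catalytic subunit of the first enzyme of glutathione synthesis, was at 1.96 and 8.58 FPKM (1.69, and 0.98), and with the GC trend removed GSTA4 and MGST1 were lower, at -1.41 and -1.03.

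**Figure D4:**
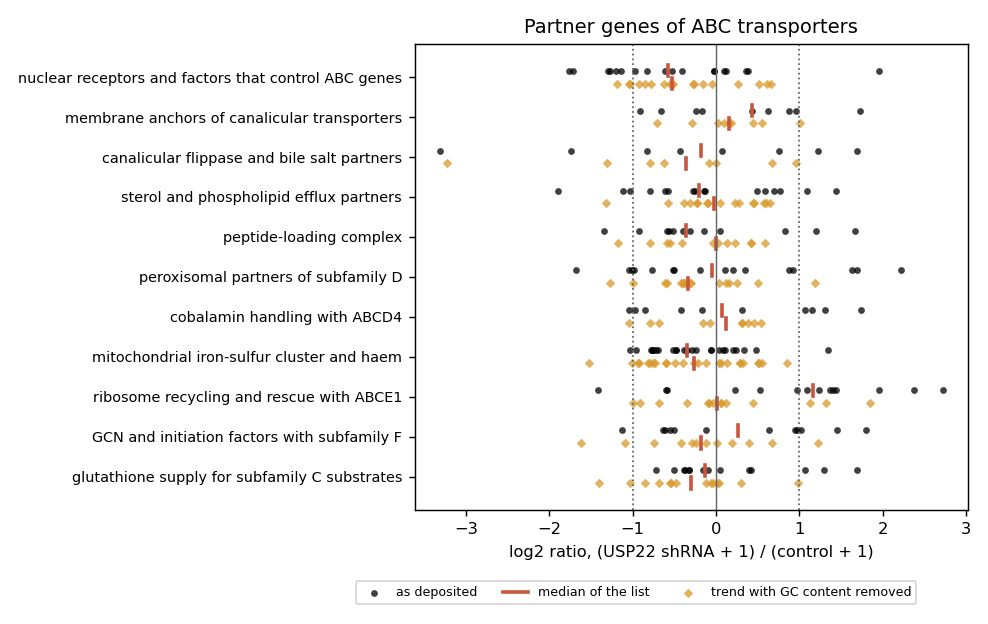
Log2 ratio of (USP22 shRNA + 1) over (control + 1) for genes that work beside ABC transporters, 1 line per list, as deposited (black circles) and with the trend with GC content removed (diamonds), for genes that average 1 FPKM or more. Red bars mark list medians, and dotted lines mark 2-fold. The ribosome recycling list has its median at 1.17 as deposited and at 0.01 with the trend removed.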

How the data were processed

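Each of the 2 deposited tables gives gene symbols, Ensembl identifiers and 1 value per gene for 11976 genes. The values deposited by the authors were read as FPKM, an assumption, since per the file headers no unit is named and TPM remains possible. Per the submitters' processing notes HISAT2 2.0.4, StringTie 1.3.0 and GRCh37 were used, in roles and with an annotation not given in the sources used here, nor whether strand was used. Low values times transcript length showed no common step (best strength 0.0495 and 0.0652 of 1 over 4000 steps), so reads could not be recovered and no model of counts was fitted. The labels do not state separate cultures.

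From these values the log2 ratio was computed with a pseudocount of 1 FPKM, which understates ratios of low genes. Gene type, GC content and transcript length came from the longest protein-coding transcript in GENCODE 29, matched by identifier (98.8% of genes with a GC value). Its build is GRCh38, so its coordinates are not those of the tables. The GC trend was removed with a lowess curve over a 30% span (statsmodels 0.14.6). The removal was tried on simulated data with a straight trend, and only on genes with a control level of at least 5 FPKM. Members below that level, such as ABCA1 and ABCB10, were outside that trial. A few genes enter the counts but are not reported here by name. Named were the other members, USP22, and of each partner list those past the size rule where 5 or fewer, otherwise those with the highest and lowest ratios, with a few others chosen after their values were seen. The members, lists and settings were chosen with earlier results of these data known.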

Additional observations from a re-analysis of the deposited data

How the results depend on the processing

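No paired analysis was possible because each group has 1 library, and for the same reason no library could be left out. Alternatives were pseudocounts of 0.1 and 5, no filter on low values, a filter at 5 FPKM, median centring, TMM scaling, rescaling without mitochondrial genes, removal of the GC trend and a 1.5-fold rule, and, chosen after seeing the data, rescaling to a sum of 1000000 and removal of GC and length trends together. A count was taken as moved beyond 1.5 times and a median beyond 0.1. Where a value moved, the cause was not tested. ABC genes called higher numbered 7, against 3 with a pseudocount of 5, with the GC trend removed and with GC and length removed. ABC genes called lower numbered 0, against 1 with a pseudocount of 0.1, 2 with TMM and 4 at 1.5-fold, and the numbers of subfamilies with such a gene were the same in each of these settings, and for higher genes 6 against 3. The ABC median of 0.12 was 0.66 with a mean of at least 5, where the median of all genes was -0.09. That filter kept 12 members, of which 6 were called higher. A gene can pass it through 1 library alone, as ABCA1 did at 1.16 and 13.3 FPKM. The ABC median was -0.054 with TMM, 0.23 without mitochondrial genes and 0.40 after rescaling to that sum. In these 3 settings the median of all genes was -0.11, 0.22 and 0.32. Genes called higher numbered 2454 in all, against 888 with a pseudocount of 5, 1184 with a mean of at least 5, 855 with the GC trend removed, 3936 after rescaling to that sum and 828 with GC and length removed, and genes called lower 1247, against 534 with a pseudocount of 5 and 2464 at 1.5-fold. With the GC trend removed the calls were 855 higher and 904 lower, and with TMM 1977 and 1776. Partner genes called higher numbered 30, against 16 with a pseudocount of 5, 6 with the GC trend removed and 7 with GC and length removed, and those called lower 19, against 4 with a pseudocount of 5, 12 without mitochondrial genes and 44 at 1.5-fold. ABCA1, ABCD3 and ABCC5 were higher with the GC trend removed, and ABCA1, ABCD3 and ABCG2 with a pseudocount of 5, so ABCA1 and ABCD3 were the members called higher in all 12 settings, the main one included.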
